A study of Mus musculus with 6 samples.

Results

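The genes encoded by the mitochondrial genome were taken as all genes of the deposited table whose symbol starts with mt-, which gave 37 of 55401 genes: 13 mRNAs, 2 rRNAs and 22 tRNAs. They were measured by sequencing of total RNA, after removal of ribosomal RNA, in mouse bone-marrow-derived macrophages (BMDM), phagocytes grown for 7 days from the marrow of tibia and femur. In the 3 L-OHP+FUC samples, 12 h with fucoidan at 250 µg/ml, a seaweed polysaccharide rich in sulfated fucose, came before 12 h with 5 µM L-OHP, by its common abbreviation the platinum drug oxaliplatin. The 3 L-OHP samples received the drug alone at the same dose and for the same time. Untreated cells and cells with fucoidan alone were not analysed here. The sources used here give no strain, sex or age of the mice and do not say that replicates are from different cultures or animals, so the p-values reflect only how far these samples spread, and that spread may be technical.

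The mitochondrial genome is a small circle of DNA present in many copies per cell, and all 13 of its proteins are subunits of the respiratory chain or of ATP synthase. Both strands are transcribed into long precursors by a dedicated polymerase, from a heavy strand promoter and a light strand promoter, and the tRNAs that lie between the mRNAs and rRNAs are cut out to release them. All other proteins of the organelle, including those that copy, transcribe, process and translate this genome, are encoded in the nucleus. Levels are given as FPKM, fragments normalised to gene length and to library depth, a scale per length on which genes may be compared within a library.

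The macrophage identity of the samples was borne out by their markers: all 10 markers on the list were tested, and their summed level was 13630 to 14622 FPKM in L-OHP+FUC libraries and 12670 to 18043 FPKM in L-OHP libraries. Of these 10, 1 was higher and 2 were lower in L-OHP+FUC at a limma adjusted p under 0.05, beside 7.67% and 19.3% of all tested genes. The summed level of each of 6 lists for other cell types was at most 10.3 FPKM in any library, and Ly6g, Cd3e and Flt3 were listed at 0 in all of them. The 9 neutrophil markers summed to 5.70 to 6.56 FPKM in L-OHP+FUC and 3.79 to 4.26 FPKM in L-OHP. Of these 9, 2 were tested, and 1 of them was higher by the same threshold. The part of the difference between these sums in the results was not tested. In bulk samples, fewer cells of a type and less RNA per cell cannot be told apart. Steps between low values gave an estimated depth of 15.7 to 18.6 M fragments per library, but only 28.5% to 33.9% of low values lay within 0.03 of a whole number of such steps, so this depth is a rough estimate and no counts were recovered.

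No mitochondrial gene passed the test, although 9 of the 13 mRNAs and 17 of the 20 tested tRNAs had a log2 fold change above 0 and both rRNAs one below 0. Of all 12084 tested genes, 4728 had one above 0 and 7356 one below 0. On log2(FPKM + 1), limma tested 12084 genes, of which 27% passed an adjusted p of 0.05, 7.67% as higher and 19.3% as lower in L-OHP+FUC. Of the 13 mRNAs 0 passed, of the 2 rRNAs 0 and of the 20 tested tRNAs 0. At an unadjusted p under 0.05, mt-Co1, mt-Nd1 and mt-Co3 were higher and mt-Rnr1 was lower, against 13.3% of all tested genes higher and 28.5% lower. By the q-value in the authors' deposited table, 4 mRNAs passed 0.05 as higher, namely mt-Co1, mt-Nd1, mt-Co3 and mt-Co2, where 9.93% of the tested genes did so. The median log2 fold change was 0.33 over the 13 mRNAs, -0.35 over the 2 rRNAs and 0.28 over the 20 tested tRNAs, beside -0.10 over all tested genes. When a library was left out these medians ranged from 0.10 to 0.49 for mRNAs, from -0.46 to -0.16 for rRNAs and from 0.15 to 0.44 for tRNAs, and each was nearest to 0 without L-OHP replicate 2. After quantile normalization the median of the mRNAs was 0.17.

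The sequences of 7 of the 13 mRNAs are shared in whole or in part with a block of nuclear pseudogenes, which bears on how each value may be read. On the minus strand of chromosome 1 (mm10, chr1:24611535-24616197), 7 pseudogenes lie side by side in the order of the mitochondrial genome. They copy mt-Nd4, mt-Nd4l, mt-Nd3, mt-Co3, mt-Atp6, mt-Co2 and the last part of mt-Co1, as Gm28439, Gm10222, Gm28438, Gm28437, Gm10925, Gm28661 and Gm29216. Over their whole length, 5 of the 7 copies are identical to the mitochondrial gene. Gm28438 differs from mt-Nd3 at 1 base, T3C, where positions count from 1 at the first base of the mitochondrial gene and the mitochondrial base comes first. Gm29216 differs from mt-Co1 at 6 bases (T1056A, C1057T, A1059G, A1060G, C1062A and A1066T), after which 479 bases run without a difference. The 3 pairs of sequences show how little separates gene and copy: the first 60 bases of mt-Co3 at chrM:8607-8666 (plus strand) and of Gm28437 at chr1:24613912-24613971 (minus strand), which are the same; the first 30 of mt-Nd3 at chrM:9459-9488 and of Gm28438 at chr1:24613090-24613119; and 32 of mt-Co1 at chrM:6381-6412 and of Gm29216 at chr1:24616166-24616197. Sequences are from GENCODE M21 transcripts (mm10), and capitals mark the bases that differ within a pair.
mt-Co3: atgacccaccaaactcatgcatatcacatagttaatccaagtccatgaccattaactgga
Gm28437: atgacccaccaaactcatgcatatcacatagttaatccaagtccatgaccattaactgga
mt-Nd3: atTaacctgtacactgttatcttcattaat
Gm28438: atCaacctgtacactgttatcttcattaat
mt-Co1: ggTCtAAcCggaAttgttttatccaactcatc
Gm29216: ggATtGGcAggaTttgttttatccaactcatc

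Of all 100-base windows of a gene, the share found in another annotated gene was 99.9% for mt-Co3, 99.5% for mt-Co2 and mt-Atp6, 98.5% for mt-Nd4l and 97.6% for mt-Nd3. It was 60.8% for mt-Nd4, 30.8% for mt-Co1 and 3.19% for mt-Nd2. No window of mt-Nd1, mt-Nd5, mt-Nd6, mt-Cytb, mt-Atp8 or of either rRNA was shared. How the authors' counting divided fragments between identical genes is not given in the sources used here, so the values of these 8 genes are uncertain. The other 5 mRNAs and the rRNAs share no window with an annotated gene, but unannotated nuclear copies were not searched. The stretch between Gm10925 and Gm28661, where mt-Atp8 would lie by gene order, was not examined. The last 43 bases of mt-Atp8, which overlap mt-Atp6, also lie in Gm10925, a stretch shorter than the 100-base window.

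Complex IV (cytochrome c oxidase) has its 3 catalytic core subunits in the mitochondrial genome. The gene mt-Co1 (chrM:5328-6872, plus strand), which carries the oxygen-reducing site, had 10661, 9847 and 9811 FPKM in L-OHP+FUC and 6561, 5990 and 8349 FPKM in L-OHP. Its groups did not overlap, as held for 16.1% of tested genes in this direction, and it was the highest mitochondrial gene in all 6 libraries. Its log2 fold change of 0.55 (SE 0.19) had an adjusted p of 0.0676 by limma, and the authors' deposited table gives it a q-value of 0.00165. The level of mt-Co3 (chrM:8607-9390) was 2490, 1824 and 1923 FPKM in L-OHP+FUC and 1463, 834 and 1682 FPKM in L-OHP. These groups did not overlap either, with a log2 fold change of 0.70 (SE 0.28, limma adjusted p = 0.107). For mt-Co2 (chrM:7013-7696), which takes electrons from cytochrome c, the values were 4084, 3662 and 2993 FPKM in L-OHP+FUC and 2833, 1721 and 3289 FPKM in L-OHP. Those of mt-Co2 overlapped, and its log2 fold change was 0.49 (SE 0.27, limma adjusted p = 0.206).

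Complex I (NADH dehydrogenase) takes 7 of the 13 proteins, all in its membrane arm. The gene mt-Nd1 (chrM:2751-3707), free of annotated copies, had 1577, 1658 and 1583 FPKM in L-OHP+FUC and 1040, 1014 and 1450 FPKM in L-OHP. Every L-OHP+FUC library lay above every L-OHP library, as held for 16.1% of tested genes, and the log2 fold change was 0.48 (SE 0.17, limma adjusted p = 0.0726). In mt-Nd4 (chrM:10167-11544) the values were 841, 1020 and 1214 FPKM in L-OHP+FUC and 778, 611 and 1068 FPKM in L-OHP, and the groups overlapped (log2 fold change 0.35, limma adjusted p = 0.304). The lowest mRNA was mt-Nd3, with 150 to 212 FPKM in L-OHP+FUC and 119 to 192 FPKM in L-OHP (0.24, limma adjusted p = 0.410). The short mt-Nd4l, whose reading frame overlaps that of mt-Nd4 by 7 bases, averaged 826 ± 133 FPKM in L-OHP+FUC and 788 ± 200 FPKM in L-OHP (SD, n = 3 each).

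For the remaining complex I genes the ratio of the mean in L-OHP+FUC to that in L-OHP was 0.994 for mt-Nd2, 0.946 for mt-Nd5 and 0.941 for mt-Nd6. Values of mt-Nd2 (chrM:3914-4951) were 482, 796 and 781 FPKM in L-OHP+FUC and 659, 556 and 858 FPKM in L-OHP (log2 fold change -0.02, SE 0.25, limma adjusted p = 0.953). Values of mt-Nd5 (chrM:11742-13565) were 547, 1022 and 1155 FPKM in L-OHP+FUC and 820, 891 and 1167 FPKM in L-OHP (-0.13, SE 0.30, limma adjusted p = 0.764). In both genes L-OHP+FUC replicate 1 was the lowest of the 6 libraries. The light strand promoter gives a single mRNA, mt-Nd6 (chrM:13552-14070, minus strand), which had 472, 845 and 923 FPKM in L-OHP+FUC and 703, 689 and 990 FPKM in L-OHP (-0.13, SE 0.28, limma adjusted p = 0.766). The last 14 bases of mt-Nd6 and mt-Nd5 overlap on opposite strands, and the sources used here do not give the use of strand in counting, so reads of a gene and of antisense RNA cannot be told apart. The ratio of mt-Nd6 to mt-Nd5 was 0.863, 0.827 and 0.799 in L-OHP+FUC and 0.856, 0.773 and 0.848 in L-OHP, a narrow range beside that of either gene.

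Complex III has a single mitochondrial subunit, cytochrome b. Its gene mt-Cytb (chrM:14145-15288), also free of annotated copies, had 1641, 1976 and 2128 FPKM in L-OHP+FUC and 1484, 1235 and 1877 FPKM in L-OHP. The groups overlapped, with a log2 fold change of 0.33 (SE 0.19, limma adjusted p = 0.230).

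ATP synthase has 2 mitochondrial subunits, whose genes overlap by 43 bases and are carried on a shared mRNA. The stretch printed here (mm10, chrM:7907-7969, plus strand) holds the last bases of mt-Atp8, with the start codon of mt-Atp6 in capitals, and is shown because the neighbours behaved differently in a library.
mt-Atp8 and mt-Atp6: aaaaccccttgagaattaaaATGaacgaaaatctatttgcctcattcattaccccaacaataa

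In mt-Atp8 (chrM:7766-7969) the values were 3363, 3363 and 2812 FPKM in L-OHP+FUC and 2713, 1557 and 3203 FPKM in L-OHP (log2 fold change 0.41, SE 0.28, limma adjusted p = 0.30). In mt-Atp6 (chrM:7927-8607) they were 527, 2362 and 2595 FPKM in L-OHP+FUC and 2649, 1162 and 2966 FPKM in L-OHP (-0.50, SE 0.66, limma adjusted p = 0.604). L-OHP+FUC replicate 1 thus had a ratio of mt-Atp6 to mt-Atp8 of 0.157, while it was 0.702 and 0.923 in the other L-OHP+FUC libraries and 0.976, 0.746 and 0.926 in L-OHP. Without that library the log2 fold change of mt-Atp6 was 0.24. The chromosome 1 copy Gm10925 was low in the same library, with 727, 1935 and 2295 FPKM in L-OHP+FUC and 1504, 1241 and 1974 FPKM in L-OHP. Adding the copy therefore left mt-Atp6 at 1250 FPKM in L-OHP+FUC replicate 1, against 4288 and 4880 FPKM in replicates 2 and 3.

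**Figure D1:**
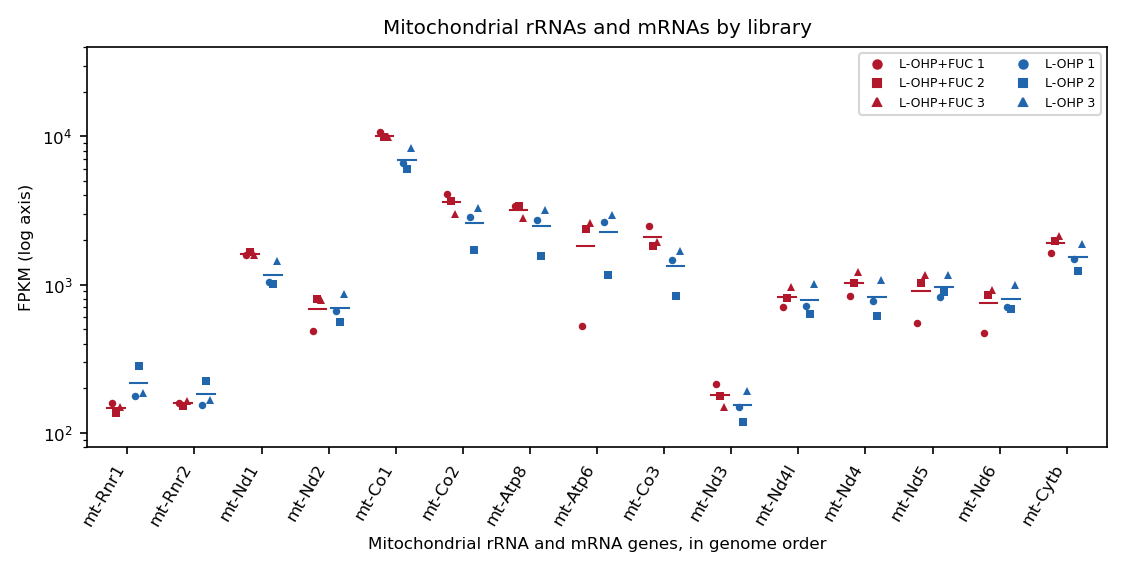
FPKM (log axis) of the 2 rRNAs and 13 mRNAs in genome order, L-OHP+FUC left of L-OHP for each gene, with 1 point per library and a line at the mean (n = 3). The groups do not overlap in mt-Co1, mt-Co3 and mt-Nd1 (L-OHP+FUC higher, as in 16.1% of tested genes) and in mt-Rnr1 (L-OHP+FUC lower, as in 30.9%), and L-OHP+FUC replicate 1 stands apart in mt-Atp6 at 527 FPKM.

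Library by library, L-OHP+FUC replicate 1 stood apart along part of the genome. Relative to the mean of the other L-OHP+FUC libraries, its log2 level was -0.99 in mt-Nd5, -0.91 in mt-Nd6 and -0.67 in mt-Te, which lie next to each other, and it was -2.23 in mt-Atp6 and -0.71 in mt-Nd2. It was -0.04 in mt-Nd1, 0.12 in mt-Co1 and mt-Atp8 and 0.41 in mt-Co3. L-OHP replicate 2 had the lowest level of the L-OHP libraries in 12 of the 13 mRNAs, with -1.27 in mt-Atp6 and -0.91 in mt-Co3 relative to the mean of the other L-OHP libraries. The same library was the highest of all 6 in both rRNAs, at 0.63 for mt-Rnr1 and 0.48 for mt-Rnr2 on that scale.

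The 13 mRNAs held 8.56%, 9.08% and 9.15% of the summed FPKM of all genes in L-OHP+FUC and 7.24%, 5.66% and 9.04% in L-OHP. The means were 8.93% ± 0.32 in L-OHP+FUC and 7.32% ± 1.69 in L-OHP (SD, n = 3 each), with an exact two-sided permutation p of 0.2, where 3 against 3 cannot go below 0.1. The L-OHP libraries were spread more widely, and their highest lay inside the range of the L-OHP+FUC libraries. With the copies added, the share was 11.1% ± 1.07 in L-OHP+FUC and 9.19% ± 1.90 in L-OHP (SD, n = 3 each, exact permutation p = 0.2). Without L-OHP replicate 2 the difference of 1.62 percentage points was 0.79, and without L-OHP replicate 3 it was 2.48. Weighted by gene length, as an estimate of their share of fragments chosen after its values were seen, the mRNAs held 2.88%, 3.01% and 3.04% in L-OHP+FUC and 2.22%, 1.82% and 2.80% in L-OHP. On this measure the groups did not overlap (exact two-sided permutation p = 0.1).

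Within the mRNA pool, where scaling against nuclear genes has no part, mt-Co1 made up 38.6%, 33.5% and 33.8% of the 13 mRNAs in L-OHP+FUC and 29.1%, 35.2% and 29.7% in L-OHP. Only mt-Nd2 had groups that did not overlap among the 13 shares, with 1.75%, 2.71% and 2.69% in L-OHP+FUC and 2.92%, 3.27% and 3.05% in L-OHP (exact permutation p = 0.1, and 0.52 after Benjamini-Hochberg adjustment over the 13). The share of mt-Atp6 ranged from 1.91% to 8.94% in L-OHP+FUC and from 6.83% to 11.7% in L-OHP (exact permutation p = 0.3). The ratio of mt-Nd6 to the sum of the 12 mRNAs from the heavy strand promoter was 0.0174, 0.0297 and 0.0328 in L-OHP+FUC and 0.0321, 0.0422 and 0.0365 in L-OHP. Those groups overlapped at their edge (exact two-sided permutation p = 0.2).

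**Figure D2:**
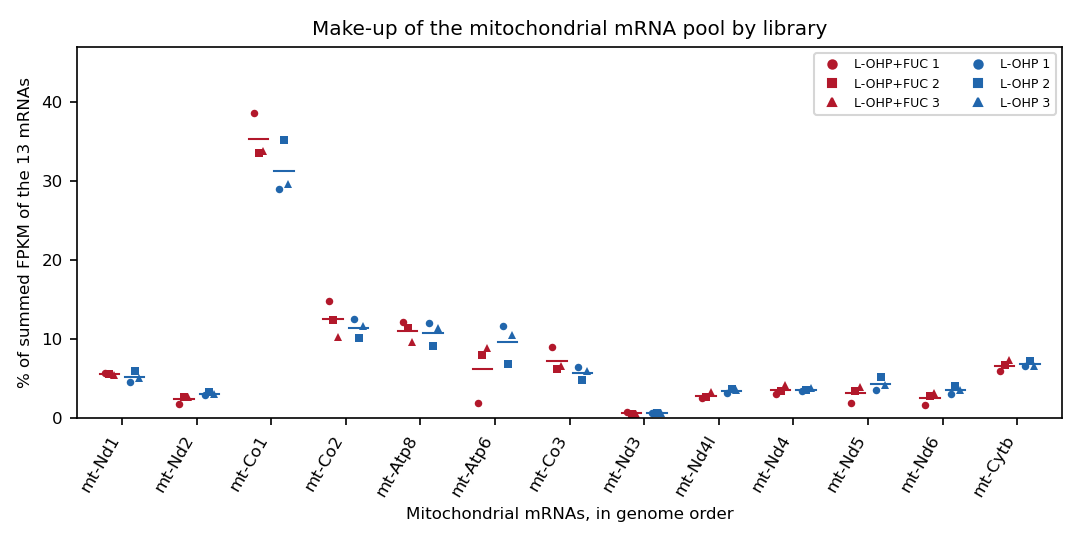
Share of each mRNA in the summed FPKM of the 13 mRNAs (%), in genome order, L-OHP+FUC left of L-OHP, with 1 point per library and a line at the mean (n = 3). The share of mt-Co1 is 33.5% to 38.6% in L-OHP+FUC and 29.1% to 35.2% in L-OHP, and mt-Atp6 drops to 1.91% in L-OHP+FUC replicate 1.

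The chromosome 1 copies were listed at group means of 107 to 3514 FPKM. Gm28437, the copy of mt-Co3, had 1348, 1714 and 1617 FPKM in L-OHP+FUC and 854, 732 and 1058 FPKM in L-OHP. Gm29216, the copy of the end of mt-Co1, had 3034, 3914 and 3592 FPKM in L-OHP+FUC and 2121, 1965 and 2498 FPKM in L-OHP. Both passed the test as higher, as did 7.67% of all tested genes. Their log2 fold changes were 0.83 (SE 0.17, limma adjusted p = 0.0177) for Gm28437 and 0.68 (SE 0.16, limma adjusted p = 0.0263) for Gm29216. How fragments of identical sequence were divided between gene and copy is not given, so the values of the copies are uncertain too. The call of Gm28437 was lost without L-OHP replicate 1 (limma adjusted p = 0.0635) and without L-OHP+FUC replicate 2 (0.0729). That of Gm29216 was lost without L-OHP replicate 1 (limma adjusted p = 0.0893) and without L-OHP+FUC replicate 1, 2 or 3 (0.0504, 0.109 and 0.0717). The other 5 copies on chromosome 1 did not pass, and 3 pseudogenes on chromosome 2 with partly diverged copies, Gm13339, Gm13340 and Gm13341, averaged at most 8.30 FPKM in a group.

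How the value was divided between gene and copy differed between libraries. Weighted by length, Gm28661 with Gm13341 held 14.5%, 32.5% and 46.2% of the value of mt-Co2 and its copies in L-OHP+FUC and 36.7%, 49.5% and 36.2% in L-OHP. For mt-Co3, Gm28437 held 35.1%, 48.4% and 45.7% in L-OHP+FUC and 36.8%, 46.7% and 38.6% in L-OHP. The copy's share of mt-Co3, mt-Nd3 and mt-Nd4l was lowest in L-OHP+FUC replicate 1 and among the highest in L-OHP replicate 2. For mt-Atp6 the share of Gm10925 was instead highest in L-OHP+FUC replicate 1, with 57.9%, 44.9% and 46.8% in L-OHP+FUC and 36.1%, 51.5% and 39.9% in L-OHP. When gene and copies were added before the test, an alternative chosen after seeing the data, mt-Co3 averaged 3637 ± 173 FPKM in L-OHP+FUC and 2207 ± 594 FPKM in L-OHP (SD, n = 3 each). In that form mt-Co3 rose, with a log2 fold change of 0.76 (SE 0.22, limma adjusted p = 0.0421), and leaving out libraries was not run for it. The combined mt-Co1 had a log2 fold change of 0.56 (SE 0.18, limma adjusted p = 0.0540), and the combined mt-Co2 one of 0.29 (limma adjusted p = 0.284).

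**Figure D3:**
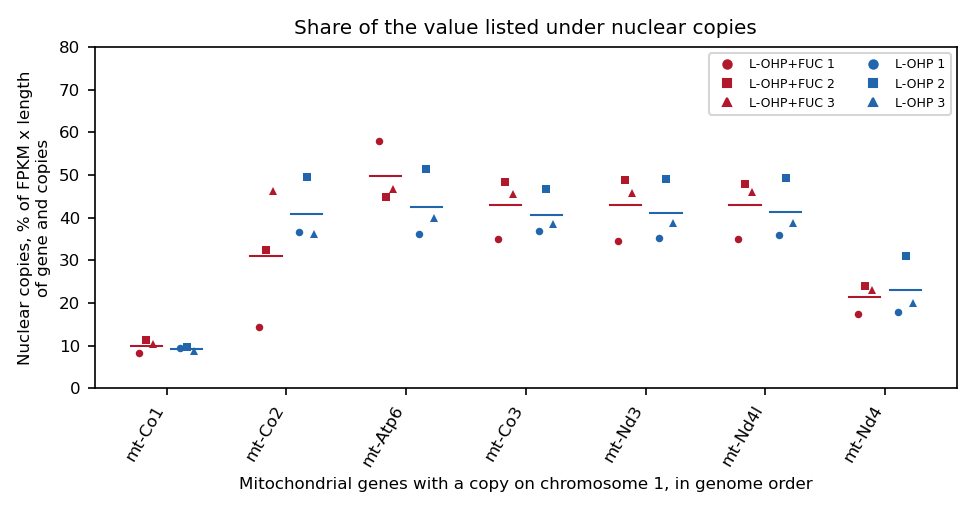
Share of FPKM times length listed under nuclear copies, as % of gene and copies together, for the 7 mitochondrial genes with a copy on chromosome 1, L-OHP+FUC left of L-OHP, with 1 point per library and a line at the mean (n = 3). In mt-Co2 the copies held 14.5% to 46.2% in L-OHP+FUC and 36.2% to 49.5% in L-OHP, so the division between identical genes moved widely among libraries.

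The 2 rRNAs, which form the cores of the small (mt-Rnr1) and large (mt-Rnr2) mitochondrial ribosomal subunits, both had log2 fold changes below 0. In mt-Rnr1 (chrM:70-1024) the values were 159, 135 and 150 FPKM in L-OHP+FUC and 178, 282 and 186 FPKM in L-OHP. The groups did not overlap, as held for 30.9% of tested genes in this direction, and the log2 fold change was -0.51 (SE 0.19, limma adjusted p = 0.0837). In mt-Rnr2 (chrM:1094-2675) the values were 158, 151 and 165 FPKM in L-OHP+FUC and 155, 225 and 167 FPKM in L-OHP (-0.18, SE 0.15, limma adjusted p = 0.390). Probes against rRNA were used to deplete these libraries, so a level of rRNA here is what was left after depletion. The targets of the probes and the efficiency in each library are not stated.

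Together the rRNAs held 0.0984%, 0.0886% and 0.0992% of the summed FPKM in L-OHP+FUC and 0.107%, 0.168% and 0.113% in L-OHP (exact two-sided permutation p = 0.1, the smallest possible). The difference of -0.0342 percentage points was -0.0147 without L-OHP replicate 2 and -0.0456 without L-OHP replicate 1. Their sum was 0.0115, 0.00976 and 0.0108 of that of the mRNAs in L-OHP+FUC and 0.0148, 0.0298 and 0.0125 in L-OHP, again without overlap (exact permutation p = 0.1). Without L-OHP replicate 2 the difference in this ratio was -0.00295, against -0.00833 with it. The ratio of mt-Rnr2 to mt-Rnr1, chosen after its values were seen, was 1.00, 1.11 and 1.10 in L-OHP+FUC and 0.867, 0.797 and 0.896 in L-OHP (exact permutation p = 0.1).

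The tRNAs are 59 to 75 bases long, shorter than the fragments of 100 to 300 bp that the labels describe, and whether their fragments came from mature tRNAs, precursors or neighbouring genes was not tested. Of the 22, 20 passed the filter on low values. The other 2, mt-Tf and mt-Tv, which flank mt-Rnr1, had at most 0.388 and 1.00 FPKM in any library and were listed at 0 in L-OHP+FUC replicate 3 and L-OHP replicate 1. The 3 tested tRNAs with a log2 fold change below 0 were mt-Te, mt-Ts1 and mt-Tg.

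The tRNAs made from the light strand promoter were listed at higher levels than most of the others. Of the 8 light strand tRNAs, 6 had a mean over 10 FPKM across the 6 libraries, with a median of 59.8 FPKM, and of the 14 heavy strand tRNAs 2 did, with a median of 3.74 FPKM. A run of 4 light strand tRNAs between mt-Nd2 and mt-Co1 and the heavy strand tRNA that follows mt-Rnr2 are shown. Together they account for most of the tRNA signal. Not printed are mt-Te and mt-Tp, at means of 98.2 and 68.1 FPKM, although both were higher than mt-Ty at 22.4 FPKM. The sequences run 5′ to 3′ as in the tRNA (mm10), at chrM:5018-5086, chrM:5089-5159, chrM:5192-5257 and chrM:5260-5326 on the minus strand and chrM:2676-2750 on the plus strand, with the anticodon in capitals.
mt-Ta: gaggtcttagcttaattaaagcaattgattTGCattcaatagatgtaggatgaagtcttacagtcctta
mt-Tn: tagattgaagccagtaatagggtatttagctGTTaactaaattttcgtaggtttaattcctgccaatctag
mt-Tc: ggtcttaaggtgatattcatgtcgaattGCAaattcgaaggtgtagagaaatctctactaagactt
mt-Ty: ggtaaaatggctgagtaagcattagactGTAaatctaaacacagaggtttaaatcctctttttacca
mt-Tl1: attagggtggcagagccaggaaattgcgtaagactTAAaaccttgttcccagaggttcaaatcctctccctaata

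The alanine tRNA mt-Ta had 79.6, 82.3 and 79.4 FPKM in L-OHP+FUC and 59.8, 51.0 and 78.5 FPKM in L-OHP (log2 fold change 0.37, SE 0.16, limma adjusted p = 0.12). The cysteine tRNA mt-Tc had 60.6, 56.6 and 56.2 FPKM in L-OHP+FUC and 45.0, 35.0 and 55.5 FPKM in L-OHP (0.37, SE 0.16, limma adjusted p = 0.13). These were the 2 of 20 tRNAs whose groups did not overlap, both with L-OHP+FUC higher, where 16.1% of tested genes did so. The asparagine tRNA mt-Tn, the highest of the class, had 123, 123 and 116 FPKM in L-OHP+FUC and 98.0, 81.6 and 119 FPKM in L-OHP (0.29, limma adjusted p = 0.169). The tyrosine tRNA mt-Ty had 24.7, 24.9 and 24.7 FPKM in L-OHP+FUC and 18.4, 16.5 and 25.4 FPKM in L-OHP (0.31, limma adjusted p = 0.17). In all 4 the L-OHP+FUC libraries lay close together, and L-OHP replicate 2 was the lowest and L-OHP replicate 3 the highest of its group.

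The leucine tRNA mt-Tl1, of the UUR codon set, had 87.8, 104 and 112 FPKM in L-OHP+FUC and 66.5, 73.1 and 98.8 FPKM in L-OHP (0.36, SE 0.17, limma adjusted p = 0.153). Its groups overlapped through L-OHP+FUC replicate 1 and L-OHP replicate 3. The glutamate tRNA mt-Te, next to mt-Nd6, had 67.8, 105 and 111 FPKM in L-OHP+FUC and 85.2, 105 and 116 FPKM in L-OHP (-0.13, limma adjusted p = 0.681). The proline tRNA mt-Tp had 70.1, 81.1 and 64.7 FPKM in L-OHP+FUC and 45.8, 86.4 and 60.4 FPKM in L-OHP, and here L-OHP replicate 2 was the highest library. Among the weaker tRNAs the widest log2 fold changes were 0.78 for mt-Tk and for mt-Ts2 and 0.65 for mt-Tm (limma adjusted p = 0.136, 0.516 and 0.155). The value of mt-Ts2 was 4.91, 0.126 and 4.64 FPKM in L-OHP+FUC and 0.160, 0.160 and 4.57 FPKM in L-OHP, near 0 in a mix of libraries from both groups.

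Together the tRNAs held 0.180%, 0.192% and 0.197% of the summed FPKM in L-OHP+FUC and 0.147%, 0.160% and 0.198% in L-OHP (exact two-sided permutation p = 0.4). The difference of 0.0213 percentage points was 0.0108 without L-OHP replicate 1 and 0.0361 without L-OHP replicate 3. Without L-OHP replicate 3, mt-Tk, mt-Ty, mt-Ta, mt-Tc and mt-Tl1 passed as higher (limma adjusted p = 0.0145 to 0.0458), as did mt-Nd1 (0.0215) and mt-Co1 (0.0326).

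**Figure D4:**
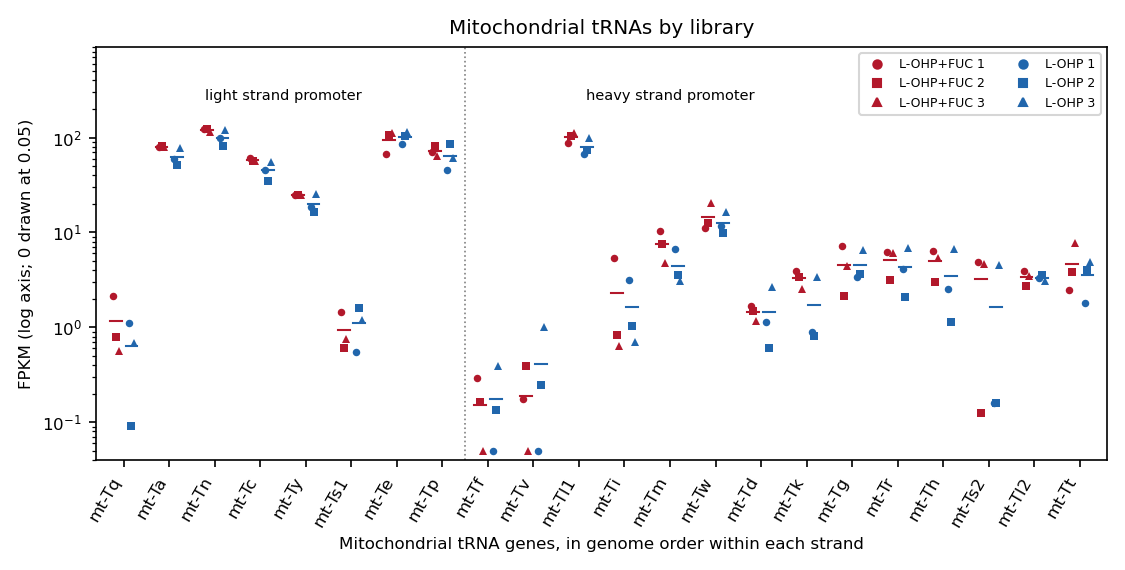
FPKM (log axis, values of 0 drawn at 0.05) of the 22 tRNAs, those of the light strand promoter left and those of the heavy strand promoter right of the dotted line, L-OHP+FUC left of L-OHP for each gene, with 1 point per library and a line at the mean (n = 3). Means over 10 FPKM are found in 6 of 8 light strand and 2 of 14 heavy strand tRNAs.

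Base composition and length moved with the fold changes in these libraries. The 13 mRNAs have 31.9% to 41.1% GC. The 1116 tested nuclear genes in that range had a median log2 fold change of -0.38, with 378 called lower and 18 higher, while the 3192 nuclear genes with 50% to 55% GC had one of -0.03. The 54 tested nuclear genes no longer than 75 bases had a median of -0.55, with 17 called lower and 1 higher. Over all tested genes, 19.3% were called lower and 7.67% higher. A correction of each library for GC content and then length was chosen after seeing the data. After it the median log2 fold change was 0.76 over the mRNAs and 1.25 over the 20 tRNAs, and 0.01 over all tested genes.

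With this correction 9 of the 13 mRNAs and 15 of the 20 tRNAs passed as higher, and 0 as lower, where 11.5% of tested genes passed as higher and 11.9% as lower. Leaving out libraries was not run with this correction. The mRNAs that passed were mt-Nd1 at a log2 fold change of 0.94 (SE 0.15, limma adjusted p = 0.0104), mt-Co1, mt-Cytb, mt-Nd4, mt-Atp8, mt-Co3, mt-Nd3, mt-Co2 and mt-Nd4l. Of these, mt-Co1, mt-Nd4, mt-Co3, mt-Nd3, mt-Co2 and mt-Nd4l share sequence with nuclear copies, so their values are uncertain. Those that did not were mt-Nd2, mt-Nd6, mt-Nd5 and mt-Atp6, with 0.45, 0.51, 0.21 and 0.06. Among the tRNAs mt-Ta had 1.34 (SE 0.16, limma adjusted p = 0.00509). The rRNAs, with 35.4% to 35.8% GC, did not pass (-0.01 for mt-Rnr1 and 0.21 for mt-Rnr2, limma adjusted p = 0.969 and 0.487). The trends were fitted over all tested genes of known GC content and length, the mitochondrial genes included. Whether such a trend holds for mitochondrial RNA, and for genes shorter than the fragments, was not tested.

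**Figure D5:**
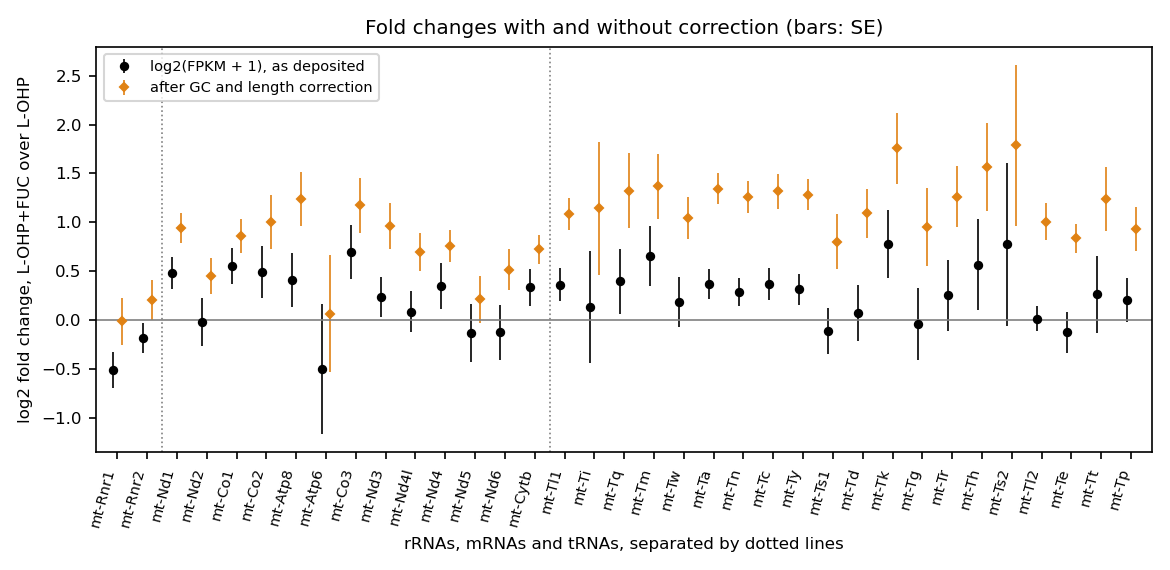
Log2 fold change by limma of L-OHP+FUC over L-OHP with its SE (n = 3 each) for the 2 rRNAs, 13 mRNAs and 20 tested tRNAs, without correction of the deposited FPKM (black circles) and after correction for GC content and length (orange diamonds). Without the correction no mitochondrial gene passed the limma test, and after the correction 9 mRNAs and 15 tRNAs passed, all as higher.

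Among nuclear genes that serve the mitochondrial genome, the share that fell was close to that of all genes. Over 5 lists, 87 members were tested, of which 15 (17.2%) fell and 2 (2.3%) rose, beside 19.3% and 7.67% of all tested genes, and their median log2 fold change was -0.18. In the list on transcription, replication and the nucleoid, 5 of 20 fell and 0 rose. Polg2, the accessory subunit of the mitochondrial DNA polymerase, had 0.788, 1.04 and 1.06 FPKM in L-OHP+FUC and 2.18, 1.62 and 1.76 FPKM in L-OHP (log2 fold change -0.54, limma adjusted p = 0.0191). Mgme1, an exonuclease of mitochondrial DNA (-0.47, limma adjusted p = 0.0217), the transcription initiation factor Tfb2m (-0.41, 0.0350) and the termination factor Mterf1a (-0.42, 0.0441) fell too. The fifth was Ssbp1, the single-stranded DNA binding protein (-0.46, limma adjusted p = 0.0494), which was named after its value was seen. So were Polrmt, the mitochondrial RNA polymerase, at 2.77 ± 0.54 FPKM in L-OHP+FUC and 3.72 ± 0.37 FPKM in L-OHP, and Tfam, which packages the genome, at 5.09 ± 0.12 FPKM in L-OHP+FUC and 5.24 ± 0.16 FPKM in L-OHP (SD, n = 3 each). Neither passed without the GC and length correction (limma adjusted p = 0.0991 for Polrmt and 0.776 for Tfam).

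Of 22 genes for processing, stability and decay of mitochondrial RNA, 2 fell and 0 rose, where 19.3% of all tested genes fell and 7.67% rose. Pnpt1, the polynucleotide phosphorylase of the mitochondrial degradosome, had 6.56, 6.80 and 9.17 FPKM in L-OHP+FUC and 13.7, 11.5 and 13.1 FPKM in L-OHP (log2 fold change -0.70, SE 0.14, limma adjusted p = 0.0150), and Angel2 had a log2 fold change of -0.37 (0.0399). Of 23 genes for tRNA and rRNA modification, 3 fell and 0 rose: Mettl17, a factor of the small ribosomal subunit (-0.39, limma adjusted p = 0.0356), Trmu, which thiolates tRNA (-0.33, 0.0445), and the tRNA methyltransferase Trmt5 (-0.42, 0.0478).

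Of 14 translation factors 3 fell and 1 rose, again beside 19.3% and 7.67% of all tested genes. Mtfmt, which formylates the initiator tRNA, had 1.16, 1.39 and 1.30 FPKM in L-OHP+FUC and 2.03, 2.46 and 2.31 FPKM in L-OHP (log2 fold change -0.51, limma adjusted p = 0.0138). The release factor Mtrf1l (-0.63, limma adjusted p = 0.0237) and the initiation factor Mtif2 (-0.51, 0.0492) also fell. Tufm, the elongation factor that brings tRNA to the ribosome, rose, with 28.8, 20.6 and 22 FPKM in L-OHP+FUC and 18.2, 16.3 and 15.6 FPKM in L-OHP (0.47, limma adjusted p = 0.0447). Of 8 regulators of biogenesis 2 fell, the transcription factors Gabpa (-0.44, limma adjusted p = 0.0389) and Yy1 (-0.39, 0.04), and 1 rose, Myc, with 2.35, 2.88 and 2.90 FPKM in L-OHP+FUC and 1.64, 1.25 and 1.65 FPKM in L-OHP (0.56, limma adjusted p = 0.0166). Each of these calls was lost without some library, with a highest adjusted p of 0.0522 for Mtfmt to 0.145 for Ssbp1. Over the 5 lists, 0 to 12 fell and 0 to 2 rose when a library was left out, with 0 falling without L-OHP+FUC replicate 1, and after quantile normalization 1 fell and 7 rose. After the GC and length correction 12 members were called lower and 4 higher. Of the 15 above, 7 were still called lower (Polg2, Mgme1, Pnpt1, Mettl17, Trmu, Mtfmt and Mtrf1l) and 8 did not pass, with log2 fold changes of -0.37 for Mtif2, -0.27 for Trmt5, -0.25 for Yy1, -0.23 for Angel2, -0.21 for Tfb2m, -0.17 for Mterf1a, -0.15 for Ssbp1 and -0.11 for Gabpa. Polrmt passed as lower there (-0.46, limma adjusted p = 0.0194), Tufm did not pass (0.35, 0.0729) and Myc did (0.48, 0.0314).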

How the data were processed

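Total RNA of BMDM was depleted of rRNA with biotinylated probes, per the labels' protocols, in 6 samples grouped by treatment. The submitters' processing notes name bcl2fastq 2.0, HISAT2, StringTie, DESeq2, limma and the build mm10, without their roles. The authors deposited FPKM per gene and library, with 0.0001 standing for 0, which was set back to 0. Also deposited, per the file headers, were the authors' ratio of mean FPKM (fold), the log2 of it, and for each gene a p-value and q-value from a test that is not stated. FPKM hold no counts, so no count test was run.

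Differences were tested in limma 3.58.1 (under R 4.3.3) on the log2(FPKM + 1) values of the whole table, two-sided, moderated with an intensity trend and adjusted after Benjamini and Hochberg, with a threshold of 0.05. A gene was tested if 3 or more libraries reached 0.5 FPKM, and adjusted p-values in the text are from this fit unless another is named. Fold changes on this scale understate those of low genes. The code was tested on simulated data. Shares and ratios were compared with exact permutation tests over samples. Coordinates, lengths and sequences are from GENCODE M21 (mm10), matched for 99.5% of the rows. The GC and length correction subtracted loess trends (span 0.3) per library. Members and lists were chosen with earlier results of these data known. All mitochondrial genes and copies could be named, and of each nuclear list up to 4 members past the threshold with the smallest p, otherwise the 2 with the smallest p. No pair of libraries shared more than 13 identical values.

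The alternatives tried were no filter, a filter at a mean of 5 FPKM, a pseudocount of 0.1, quantile normalization, median ratio rescaling, rescaling to nuclear genes, no trend, a replicate block, other denominators and leaving out each library. Chosen after seeing the data were the added copies, the GC and length correction with and without the block, and an adjusted p of 0.1.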

Additional observations from a re-analysis of the deposited data

How the results depend on the processing

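The count of mRNAs past it, 0 as reported, was 1 with a mean of at least 5 FPKM and without the intensity trend (mt-Co1), 2 after median ratio rescaling and at an adjusted p of 0.1 (mt-Co1 and mt-Nd1), 1 with nuclear copies added (mt-Co3), 9 after GC and length correction, and 0 to 2 when a library was left out. The count of rRNAs was 1 after quantile normalization and at an adjusted p of 0.1 (mt-Rnr1, lower), and that of tRNAs was 15 after GC and length correction and 0 to 5 when a library was left out. The medians were 0.76 for mRNAs, 1.25 for tRNAs and 0.096 for rRNAs, the last with its sign turned, after GC and length correction. In the nuclear lists, 2 higher as reported, the count was 1 without a filter and with a mean of at least 5 FPKM, 5 after median ratio rescaling, 7 after quantile normalization, 4 after GC and length correction and 0 to 2 when a library was left out. The count of lower members, 15 as reported, was 18 after rescaling to the nuclear sum, 17 without the intensity trend and 12 with a pseudocount of 0.1. It was 2 without a filter, 4 with a mean of at least 5 FPKM, 5 after median ratio rescaling and 1 after quantile normalization. After GC and length correction it was 12, and it was 0 to 12 when a library was left out. The median of all tested genes was -0.10 as reported, 0.03 after quantile normalization, -0.01 after median ratio rescaling and 0.01 after GC and length correction. The causes of these shifts were not tested.

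Whether equal replicate numbers mark paired samples could not be decided. Over the tested genes the deviations of equal numbers correlated at -0.037, -0.071 and 0.083, and not every sample correlated best with its own number. With 3 samples per group such correlations cannot exclude a pairing. With the replicate block, 1 tRNA passed (mt-Tm, limma adjusted p = 0.0302), 0 mRNAs and 0 rRNAs did, and 8 members of the nuclear lists fell. The GC and length correction with the block gave 3 mRNAs, 13 tRNAs, 0 higher and 5 lower list members, and medians of 0.76 and 1.25.

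The sign of the log2 fold change turned in several settings for genes that did not pass as reported. After GC and length correction, with and without the block, these were mt-Rnr2 (0.21), mt-Nd2 (0.45), mt-Ts1 (0.80), mt-Atp6 (0.065), mt-Tg (0.96), mt-Nd5 (0.21), mt-Nd6 (0.51) and mt-Te (0.83), of which mt-Te passed as higher (limma adjusted p = 0.0135, and 0.0308 with the block). After median ratio rescaling they were mt-Nd2 (0.11), mt-Tg (0.062), mt-Nd6 (0.0012) and mt-Te (0.00014), after quantile normalization mt-Ts1 (0.11) and mt-Tg (0.12), and after rescaling to the nuclear sum mt-Tl2 (-0.012). With copies added, the share of mt-Co2 in the mRNA pool differed by -0.66 percentage points. When a library was left out, log2 fold changes that changed sign ranged from -0.49 to 0.53 for mt-Ti, -0.17 to 0.21 for mt-Nd2, -0.058 to 0.38 for mt-Tw, -0.32 to 0.051 for mt-Ts1, -0.19 to 0.40 for mt-Td, -0.92 to 0.24 for mt-Atp6, -0.38 to 0.32 for mt-Tg, -0.090 to 0.58 for mt-Tr, -0.060 to 0.28 for mt-Nd4l, -0.075 to 0.13 for mt-Tl2, -0.34 to 0.20 for mt-Nd5, -0.31 to 0.17 for mt-Nd6, -0.26 to 0.095 for mt-Te, -0.093 to 0.57 for mt-Tt and -0.012 to 0.44 for mt-Tp. Shares in the mRNA pool ranged from -0.068 to 2.18 percentage points for mt-Co2, -0.60 to 0.96 for mt-Atp8, -0.12 to 0.0044 for mt-Nd3, -0.35 to 0.22 for mt-Nd4 and -0.50 to 0.19 for mt-Cytb. The 3 samples per group, fragments longer than a tRNA and values shared with nuclear copies limit what these data can resolve.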
